A study of Homo sapiens with 4 samples.

Results

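On the exon array used here, 2335 of 232479 probesets carry 2 or more gene symbols. A probeset is a small group of probes that reads about 1 exon or a piece of 1, and its value is a log2 signal. The rule that picks them reads annotation alone: the platform's table lists 2 or more symbols for them, joined in 1 entry. It uses no expression value of the mimic or control arrays. Of the 2335, 1993 carried 2 symbols and 342 carried 3 or more, with 14 the most on any 1 probeset. After old symbols were updated, the probesets fell into 420 different combinations, called symbol sets here, of which 128 rested on a single probeset. In 16 of the 420, with 101 probesets, all the symbols now stand for 1 gene. For comparison, 216780 probesets named 1 gene and 13364 named none.

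The study transfected T-47D cells, an established hormone receptor-positive luminal breast cancer line, with 200 nM of a mimic of the artificial microRNA p-27-5p. The other group received a pre-miR negative control, for which no dose is given separately. Each group had 2 arrays of total RNA, and both used TurboFect as transfection reagent. Whether the arrays of a group stand for separate cultures is not in the labels, so every p-value measures spread between arrays only, and this spread may be technical. They also give no time between transfection and RNA extraction.

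A signal shared by several genes arises in a few ways. Neighbouring genes may overlap or be joined in a read-through transcript, duplicated genes may be too alike for a probe to tell them apart, and clustered families such as UGT1A splice different first exons onto common ones. The class III region of the major histocompatibility complex (MHC) is a known example of crowding, with the complement genes C2 and CFB lying next to each other and C4A and C4B being near copies. Interferons, the antiviral cytokines, act in part through the factor IRF9 and a DNA element of repeated GAAA motifs, and they raise many genes of antigen presentation and complement.

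The sequences just upstream of the genes behind the sets that rose most are shown first, because they let a reader see which genes carry such letters. They are the 250 bases before the annotated start, 5′ to 3′ on the gene's strand, from RefSeq's promoter table for GRCh38.p14. Capitals mark matches, on either strand, to the core of the interferon-stimulated response element (GAAA, any 2 bases, then GAAA), to the gamma-activated sequence (TTCNNNGAA) or to the NF-kB site by its name. Matches, to the same motif or to different ones, did not need to be apart from each other. Of 35116 windows of this length in the table, 3.02% held the first of these, 6.57% the second and 9.96% the NF-kB site. The windows lie at chr19:39268146-39268395 on the plus strand (IFNL2), chr19:39245251-39245500 on the minus strand (IFNL3), chr6:31945845-31946094 on the plus strand (CFB), chr16:67936851-67937100 on the minus strand (PSMB10), chr6:31357180-31357429 on the minus strand (HLA-B) and chr6:31272093-31272342 on the minus strand (HLA-C).
IFNL2: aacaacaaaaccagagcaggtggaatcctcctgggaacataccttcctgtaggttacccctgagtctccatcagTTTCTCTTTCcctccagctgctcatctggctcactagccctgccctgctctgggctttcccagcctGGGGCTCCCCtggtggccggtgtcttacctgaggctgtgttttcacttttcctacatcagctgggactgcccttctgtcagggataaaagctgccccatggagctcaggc
IFNL3: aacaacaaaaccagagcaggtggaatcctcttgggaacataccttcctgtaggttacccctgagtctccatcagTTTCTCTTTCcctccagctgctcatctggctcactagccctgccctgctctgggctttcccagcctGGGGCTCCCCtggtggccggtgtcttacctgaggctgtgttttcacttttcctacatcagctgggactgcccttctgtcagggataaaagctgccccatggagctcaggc
CFB: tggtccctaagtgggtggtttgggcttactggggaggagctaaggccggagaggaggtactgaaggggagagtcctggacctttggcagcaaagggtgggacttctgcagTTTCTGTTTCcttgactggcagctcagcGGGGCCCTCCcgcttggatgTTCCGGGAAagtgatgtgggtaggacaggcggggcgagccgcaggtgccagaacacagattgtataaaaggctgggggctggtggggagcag
PSMB10: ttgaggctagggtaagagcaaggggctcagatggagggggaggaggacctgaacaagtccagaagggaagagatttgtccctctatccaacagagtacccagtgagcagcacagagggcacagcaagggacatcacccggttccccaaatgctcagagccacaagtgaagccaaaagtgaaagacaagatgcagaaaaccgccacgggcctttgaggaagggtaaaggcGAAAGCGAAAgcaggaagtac
HLA-B: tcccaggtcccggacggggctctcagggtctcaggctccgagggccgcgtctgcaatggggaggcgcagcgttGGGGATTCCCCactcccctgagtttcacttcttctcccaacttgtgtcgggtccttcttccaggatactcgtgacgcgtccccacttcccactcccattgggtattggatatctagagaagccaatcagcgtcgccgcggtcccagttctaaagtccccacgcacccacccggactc
HLA-C: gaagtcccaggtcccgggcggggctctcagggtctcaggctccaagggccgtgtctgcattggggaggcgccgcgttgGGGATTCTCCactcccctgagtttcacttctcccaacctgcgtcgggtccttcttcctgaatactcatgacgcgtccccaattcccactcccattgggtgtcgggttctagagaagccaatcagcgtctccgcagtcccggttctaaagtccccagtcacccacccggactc
The IFNL2 and IFNL3 windows were the same at 249 of 250 bases, and each held 1 match to the response element core and 1 to the NF-kB site. The CFB window held 1 match to each of the 3 motifs. Neither of the 2 windows listed for C2 held any of the 3. The PSMB10 window held 1 response element core and the HLA-C window 1 NF-kB match. The HLA-B window held 2 NF-kB matches that overlap within 1 run of capitals, so they mark 1 stretch and not 2 separate sites. A second start listed for IFNL3 held none. A match is only a run of letters, and the lack of one says nothing about a factor.

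Across all probesets the arrays correlated with r = 0.985 within the mimic group and 0.984 within the control group, and from 0.966 to 0.973 across groups, as a description of 4 arrays. Over the shared probesets alone the corresponding values were 0.984, 0.983 and 0.941 to 0.951. The 12 luminal epithelium markers checked, among them KRT8, GATA3 and ESR1, had control means from 6.43 to 12.40. The highest control mean was 4.87 among 7 leukocyte markers, 5.46 among 6 endothelial markers and 6.75 among 8 fibroblast markers, and no marker of these 4 lists differed between the groups in limma's test at an adjusted p of 0.05. Of 16 genes of liver and neurons that were used to judge background, the median control mean was 3.65. Values near that level carry little signal over background, and a fold change against them understates the change.

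Among single shared probesets, a few genes of complement, antigen presentation and type III interferon made up nearly all the increases. To be tested, a probeset had to reach a 4-array mean of 4.09, which is the table's 25th percentile, and 1758 of the 2335 did. In limma's test over every probeset of the array, 26 shared probesets rose and 1 fell at an adjusted p of 0.05. The background was 0.797 percent higher and 0.0889 percent lower among all 174359 probesets tested. C2/CFB gave 20 of the 26 increases. The other 6 were 2 of CTRL/PSMB10 and 1 each of IFNL2/IFNL3, HLA-B/HLA-C, C4A/C4B and AGO3/AGO4, while the 1 decrease read a set of histone H4 genes. Without C2/CFB, 6 of 1738 tested shared probesets rose. Of the 26, 8 had a control mean under the filter value, so they were tested only because the mimic arrays were high.

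Taken as a whole, the shared probesets were spread around 0 like the rest of the array. Their median change, mimic minus control on the log2 scale, was -0.02, with an interquartile range from -0.30 to 0.25, beside a median of -0.03 over all probesets tested. The mimic arrays both lay above the control arrays in 415 of the 1758, or 23.6%, and both below in 479, or 27.2%. The background for these counts was 21.0 percent above and 26.8 percent below. An unadjusted p under 0.05 was found for 318 shared probesets, 143 of them higher, which is 18.1% beside 15.2 percent of all probesets.

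Averaged over the probesets of each symbol set and tested in 1 table with 15708 single genes, 8 of 352 symbol sets rose and none fell in limma's test. The background over the 16060 sets and genes was 1.52 percent higher and 0.735 percent lower. At an unadjusted p under 0.05, 31 sets were higher and 47 lower, together 22.2% beside a background of 20.4 percent. The groups did not overlap, with the mimic arrays above, in 69 sets, beside a background of 20.5 percent, and with the mimic arrays below in 104 sets, beside 29.5 percent. The count of sets called depended on single arrays: it was 4 when either mimic array was left out, 47 when control array 1 was and 17 when control array 2 was. With all arrays the test of sets and genes had 5.27 degrees of freedom with limma's prior, without a mimic array 6.96 and without a control array 13.5, and a larger number gives smaller p for the same change and spread. IFNL2/IFNL3, C2/CFB, HLA-B/HLA-C and CTRL/PSMB10 were called in each of these 4 fits.

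**Figure D1:**
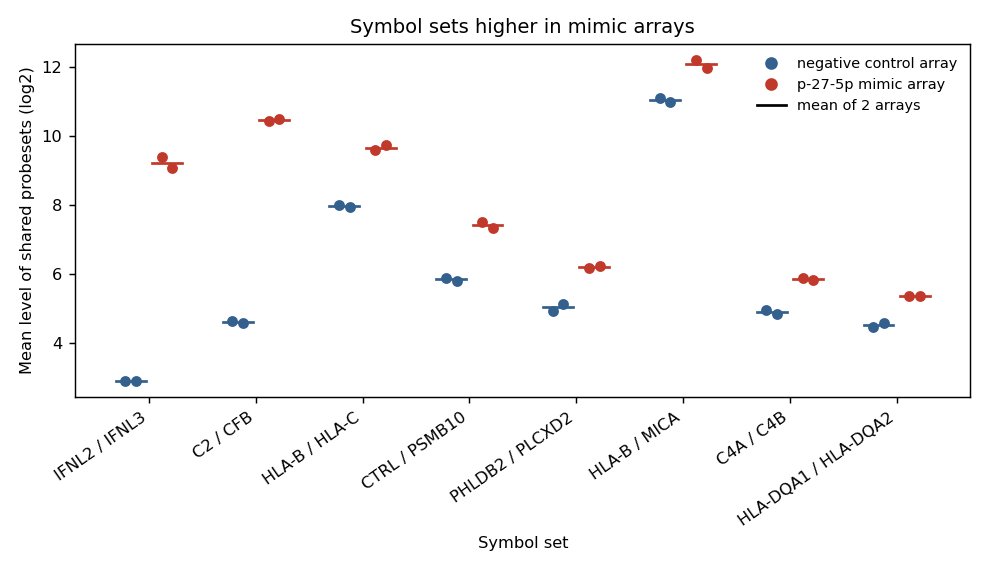
Mean log2 level of the tested shared probesets of each of the 8 symbol sets that rose (y axis), by array, with bars at the mean of the 2 arrays of a group. In every set both mimic arrays lie above both control arrays, by 6.33 for IFNL2/IFNL3 and by 0.84 for HLA-DQA1/HLA-DQA2.

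The plot of levels by array shows the wide range of these increases, from just under 2-fold to far more. The largest was that of the type III interferons. IFNL2 and IFNL3, listed under their older names IL28A and IL28B, are secreted cytokines that signal through a receptor found mainly on epithelial cells, and the array reads both through 1 shared probeset. Its level was 9.38 and 9.07 on mimic arrays 1 and 2 and 2.90 on each control array. The control level lies below the filter value and below the median of the background genes, and the mimic arrays lie far above both. The difference was 6.33 on the log2 scale (SE 0.152, 95% confidence interval 5.94 to 6.71, limma adjusted p = 0.000143), an 80.2-fold higher signal. No probeset named either gene alone, so the values do not say which of them gave the signal. The set was bright enough to be tested only because the mimic arrays were high. In RNA of a whole culture, more cells that express a gene and more RNA per cell cannot be told apart.

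Complement genes gave the second largest increase. C2 and factor B (CFB) are homologous serine proteases that form the C3 convertases of the classical and the alternative pathway, and 20 probesets carried both symbols. Their mean level was 10.43 and 10.47 on the mimic arrays against 4.63 and 4.58 on the control arrays. The groups were far apart and each group's arrays nearly equal, with a difference of 5.85 (SE 0.119, 95% confidence interval 5.55 to 6.15, limma adjusted p = 0.000107), or 57.6-fold. All 20 probesets rose on their own, by 3.84 to 7.51 with a median of 5.75. Some of them are among the 8 increases whose control mean lay under the filter value. Those were tested only because the mimic arrays were high.

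The probesets that name only 1 of these genes moved by very different amounts. CFB alone was read by 3 probesets, whose mean was 7.37 and 7.44 on the mimic arrays against 4.02 and 3.97 on the control arrays. All 3 rose, by 2.69 to 4.13, and together by 3.41 (SE 0.120, limma adjusted p = 0.000292), or 10.7-fold. C2 alone was listed for 24 probesets, of which 9 were bright enough to test, and their mean was 4.95 and 4.65 on the mimic arrays against 4.81 and 4.30 on the control arrays. The groups overlapped there, the difference was 0.25 (SE 0.218, limma adjusted p = 0.579), and none of the 9 was called, with changes from -0.37 to 0.75. These C2 levels lie near background in both groups, so they do not show that C2 itself was unchanged. The control level of CFB alone lies just under the filter value too, and its fold change may be understated.

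Tested directly, the shared C2/CFB probesets rose by 5.60 more than those of C2 alone (SE 0.265, 95% confidence interval 4.94 to 6.26, limma adjusted p = 0.000604). They rose by 2.43 more than those of CFB alone (SE 0.202, 95% confidence interval 1.93 to 2.94, limma adjusted p = 0.00666). Both are differences of measured changes, against probesets that were dim in 1 or both groups. The background for such differences was 0.456 percent higher and 0.228 percent lower, since 2 and 1 of 439 pairs of a set and a gene were called. The 2 called higher are these C2/CFB pairs themselves, so that share is not an independent rate to set them against. Without control replicate 2 the difference from CFB had an adjusted p of 0.0723. The levels of different probesets are not compared, only their changes, and what the probesets' position in the genes has to do with this was not tested.

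**Figure D2:**
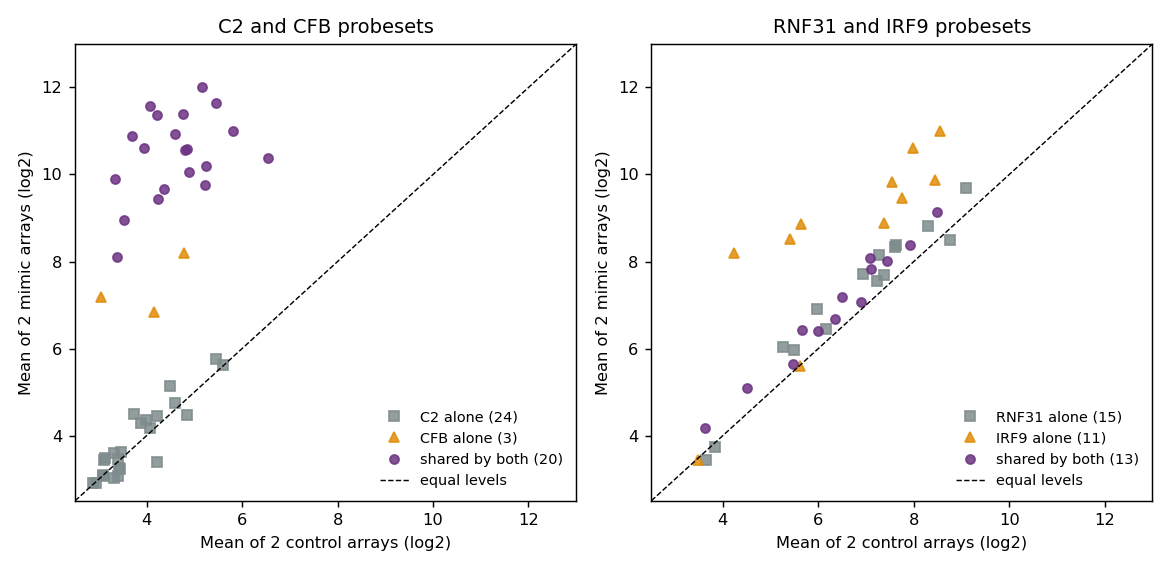
Mean log2 level on the 2 mimic arrays (y axis) against that on the 2 control arrays (x axis), 1 point per probeset, for C2 and CFB (left) and for RNF31 and IRF9 (right), with the dashed line at equal levels. The 20 shared C2/CFB probesets lie far above the line, the 3 of CFB alone lie above it by 2.69 to 4.13 and the 24 of C2 alone lie near it. The 13 shared RNF31/IRF9 probesets lie about as far from the line as those of RNF31 alone, and most of IRF9 alone lie further above it.

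C4A and C4B encode the 2 isotypes of complement component C4, which the classical and lectin pathways cleave, and no probeset named either alone. This is the second largest group of shared probesets, with 48, of which 39 were tested. The mean level was 5.89 and 5.82 on the mimic arrays against 4.94 and 4.83 on the control arrays, a low signal in both groups but without overlap. The difference was 0.97 (SE 0.124, 95% confidence interval 0.65 to 1.28, limma adjusted p = 0.0288), or 1.96-fold. Every one of the 39 changes was above 0, from 0.10 to 1.92 with a median of 0.95. Of them 33, or 84.6%, had both mimic arrays above both control arrays, beside a background of 21.0 percent. On its own 1 was called, or 2.56%, beside a background of 0.797 percent. Leaving out mimic replicate 1 gave an adjusted p of 0.172, and leaving out mimic replicate 2 gave 0.123.

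Another 4 of the 8 increases were of sets that hold an HLA gene or PSMB10. HLA-B and HLA-C are class I heavy chains, which show peptides to T cells, and 3 probesets named both and no other gene. Their mean was 9.59 and 9.72 on the mimic arrays against 7.98 and 7.93 on the control arrays. The groups were well apart, by 1.70 (SE 0.125, 95% confidence interval 1.38 to 2.01, limma adjusted p = 0.00405), or 3.24-fold. The 3 probesets changed by 1.80, 1.72 and 1.56, the first of them past the threshold on its own.

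Another 3 probesets carried HLA-B together with MICA, a stress-induced ligand of the natural killer cell receptor NKG2D that lies beside HLA-B. Their mean was 12.19 and 11.96 on the mimic arrays against 11.10 and 10.96 on the control arrays, without overlap. They rose by 1.04 (SE 0.144, limma adjusted p = 0.0370), or 2.05-fold, with the single probesets between 0.999 and 1.08. The adjusted p was 0.177 without mimic replicate 1, 0.0783 without mimic replicate 2 and 0.0502 with equal array medians. Neither HLA-B, HLA-C nor MICA had a probeset of its own here.

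PSMB10, an inducible catalytic subunit of the immunoproteasome that trims antigens for class I, shared 6 probesets with its neighbour CTRL, a chymotrypsin-like protease. Their mean was 7.49 and 7.33 on the mimic arrays against 5.89 and 5.79 on the control arrays. The difference was 1.58 (SE 0.131, 95% confidence interval 1.24 to 1.91, limma adjusted p = 0.00676), or 2.98-fold. Single probesets changed by 0.64 to 2.43, 5 of the 6 without overlap between groups and 2 past the threshold. The background was 21.0 percent above without overlap and 0.797 percent called higher. With the brightest probeset alone, which changed by 0.64, the adjusted p was 0.624.

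Probesets of PSMB10 alone stood at 7.54 and 7.57 on the mimic arrays against 5.68 and 5.26 on the control arrays, and rose by 2.09 (SE 0.175, limma adjusted p = 0.00689). Those of CTRL alone stood at 5.93 and 6.15 against 5.22 and 4.93, without overlap, a difference of 0.96 that missed the threshold (SE 0.162, limma adjusted p = 0.0588). The shared probesets lay between them, and neither difference passed: 0.61 from CTRL (adjusted p = 0.362) and -0.51 from PSMB10 (adjusted p = 0.399).

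HLA-DQA1 and HLA-DQA2 encode alpha chains of class II DQ molecules, which present peptides to helper T cells. Of their 8 shared probesets only 3 were bright enough to test, and these changed by -0.02, 0.62 and 1.93. The mean was 5.37 and 5.36 on the mimic arrays against 4.45 and 4.59 on the control arrays, near background in both groups. The set rose by 0.84 (SE 0.124, limma adjusted p = 0.0427), just past the threshold. Over all 8 probesets, with no filter, the change was 0.50. The adjusted p was 0.0506 with a replicate block, 0.0503 after quantile normalization, and 0.224 and 0.192 without mimic replicates 1 and 2, and the median of the probesets differed by 0.34 (adjusted p = 0.392). HLA-DQA2 alone differed by -0.20 (SE 0.128, adjusted p = 0.448). The class II set that joins 5 HLA-DRB symbols with RNASE2 and ZNF749, genes that RefSeq places on different chromosomes, had 1 of 7 probesets tested, at 5.58 and 3.99 against 4.99 and 4.36, with overlap.

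HLA-DOB, a class II chain that modulates peptide loading, and TAP2, a subunit of the peptide transporter of class I presentation, shared 4 probesets, of which 2 were tested. The mean was 4.64 and 4.61 on the mimic arrays against 4.20 and 3.79 on the control arrays, without overlap but near background. The difference was 0.63 (SE 0.171, limma adjusted p = 0.135). Leaving out control replicate 1 gave 0.83 (adjusted p = 0.0146), leaving out control replicate 2 gave 0.43 (adjusted p = 0.271), and leaving out a mimic array gave 0.61 and 0.65 (adjusted p = 0.476 and 0.365). TAP2 alone, with 16 of its 20 probesets tested, rose from 7.53 and 7.52 to 9.23 and 9.15, by 1.67 (SE 0.119, limma adjusted p = 0.00367). The shared probesets changed by 1.04 less than those of TAP2 alone, which missed the threshold (adjusted p = 0.212).

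Between the neighbours RNF31 and IRF9, the shared probesets changed by less than those of the gene that rose. IRF9 is a DNA-binding factor of interferon signalling, and RNF31 is the catalytic subunit of the complex that builds linear ubiquitin chains. IRF9 alone stood at 9.07 and 9.10 on the mimic arrays against 6.81 and 6.90 on the control arrays, and rose by 2.23 (SE 0.120, limma adjusted p = 0.00123), or 4.68-fold, with 7 of its 10 tested probesets called. RNF31 alone stood at 7.73 and 7.69 against 7.24 and 7.08, a difference of 0.55 that missed the threshold (SE 0.127, limma adjusted p = 0.105).

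The 13 probesets that carry both symbols, 12 of them tested, had a mean of 7.09 and 7.24 on the mimic arrays against 6.52 and 6.71 on the control arrays. The groups did not overlap, and the difference of 0.55 missed the threshold (SE 0.138, limma adjusted p = 0.120). All 12 changes were above 0, from 0.17 to 0.99, and 11 were without overlap, beside a background of 21.0 percent. Tested directly, the shared probesets changed by 1.68 less than those of IRF9 alone (-1.68, SE 0.207, 95% confidence interval -2.19 to -1.17, limma adjusted p = 0.0371). Their difference from RNF31 alone was 0.00 (95% confidence interval -0.58 to 0.58, adjusted p = 0.999). The call against IRF9 did not hold without mimic replicate 1, control replicate 1 or control replicate 2, where the adjusted p was 0.0661, 0.129 and 0.133 and the difference stayed between -1.73 and -1.62. The plot of probeset levels shows the shared RNF31/IRF9 probesets about as far from the line of equal levels as those of RNF31 alone. The changes of the latter ran from -0.24 to 0.94.

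The upstream windows of RNF31 and IRF9 are shown because the neighbours changed by different amounts. The window before the first listed start of RNF31, at chr14:24146625-24146874 on the plus strand, held 1 match to the response element core on the opposite strand, and that of IRF9, at chr14:24161015-24161264 on the plus strand, held 1 match to TTCNNNGAA.
RNF31: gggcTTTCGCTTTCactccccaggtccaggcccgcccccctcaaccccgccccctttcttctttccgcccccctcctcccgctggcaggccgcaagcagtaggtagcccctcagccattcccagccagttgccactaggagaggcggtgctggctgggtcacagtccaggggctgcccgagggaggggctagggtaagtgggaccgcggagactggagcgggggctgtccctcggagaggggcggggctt
IRF9: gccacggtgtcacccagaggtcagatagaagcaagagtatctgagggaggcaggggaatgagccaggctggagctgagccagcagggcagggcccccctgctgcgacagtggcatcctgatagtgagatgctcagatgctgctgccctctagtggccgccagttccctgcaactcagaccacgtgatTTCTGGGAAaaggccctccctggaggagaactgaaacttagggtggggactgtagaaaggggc
Capitals again mark the matches. The window of a second start listed for RNF31 held no match to any of the motifs.

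SP140 and SP140L, related chromatin-binding proteins, shared 3 probesets at 9.68 and 9.58 on the mimic arrays against 9.03 and 9.29 on the control arrays. The difference was 0.47 (SE 0.144, limma adjusted p = 0.165), beside 0.84 (adjusted p = 0.103) for SP140L alone and 0.31 (adjusted p = 0.535) for SP140 alone. None of the 3 values passed the threshold.

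TRIM34 and TRIM6, adjacent tripartite motif proteins that also form a read-through transcript, shared 17 probesets under the 3 symbols, of which 15 were tested. Their changes ran in both directions, from -0.90 to 1.82. Without overlap 8 probesets were higher and 4 lower, beside 21.0 and 26.8 percent of all probesets. The mean difference was 0.43 (SE 0.144, limma adjusted p = 0.191), and the median of the probesets gave -0.04 (adjusted p = 0.954). TRIM34 alone was at 7.02 and 7.56 against 6.01 and 4.93, higher by 1.82 (SE 0.388, adjusted p = 0.0898). TRIM6 alone was at 6.07 and 6.22 against 6.76 and 6.82, at -0.64 (SE 0.126, adjusted p = 0.0767). So the genes differed in opposite directions without either passing the threshold, and the shared probesets' differences from them did not pass either (1.07 from TRIM6, adjusted p = 0.184, and -1.39 from TRIM34, adjusted p = 0.341). A single probeset under the 2 gene symbols alone was at 6.25 and 5.30 against 5.61 and 3.60, with overlap. It differed by 1.17 (SE 0.694, adjusted p = 0.416). Without control replicate 1 the difference was 2.17 (adjusted p = 0.000363) and without control replicate 2 it was 0.17 (adjusted p = 0.857), so 1 control array set its size. Without mimic replicates 1 and 2 it was 0.70 (adjusted p = 0.840) and 1.65 (adjusted p = 0.394).

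Over the list of interferon-stimulated genes, 10 symbol sets held a member of the list. Of these 5 rose and none fell, beside the background of 1.52 percent for increases. Of the 10, 9 had an unadjusted p under 0.05, beside 20.4 percent of all sets and genes, and the median change was 1.004. Of 100 genes of the list with probesets of their own, 87 rose and none fell, with a median change of 2.68. Among all 15708 single genes 1.5 percent rose and 0.751 percent fell. The list was written with earlier results of these arrays known, so neither count is independent evidence of its direction. C2/CFB, HLA-DQA1/HLA-DQA2 and PHLDB2/PLCXD2 are not on the list and rose as well.

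PHLDB2, a phosphoinositide-binding protein of the cell cortex, and PLCXD2, which carries a phospholipase C catalytic domain, shared 2 probesets, of which 1 was tested. It stood at 6.17 and 6.22 on the mimic arrays against 4.93 and 5.14 on the control arrays, higher by 1.16 (SE 0.134, limma adjusted p = 0.0203), or 2.24-fold. Over both shared probesets, with no filter, the change was 0.74. PHLDB2 alone, with 19 tested probesets, stood at 6.11 and 6.01 against 5.10 and 4.95 and rose by 1.03 (SE 0.129, limma adjusted p = 0.0271). PLCXD2 alone was at 4.25 and 4.26 against 4.83 and 4.46, a difference of -0.39 (adjusted p = 0.273). The shared probeset's change was 0.13 above that of PHLDB2 (adjusted p = 0.815) and 1.55 above that of PLCXD2 (95% confidence interval 0.89 to 2.21, adjusted p = 0.147), and neither difference passed. The set's adjusted p was 0.0889 without mimic replicate 1 and 0.0936 without mimic replicate 2.

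No symbol set fell at the threshold of 0.05 in limma's test, and 47 were lower at an unadjusted p under 0.05. The 6 with the smallest p are therefore given as values that missed it. Histone genes supplied 2 of them. Replication-dependent histone genes lie in clusters, encode nearly identical proteins and are transcribed mainly in S phase, so that 1 probe often fits many of them.

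The largest histone set joined 14 H4 genes, from H4C1 to H4C16 as the symbols run, in 25 probesets. Its mean was 7.45 and 7.41 on the mimic arrays against 8.11 on both control arrays, lower by 0.68 with no overlap (-0.68, SE 0.118, 95% confidence interval -0.98 to -0.38, limma adjusted p = 0.0619). Of 22 tested probesets, 18 were lower without overlap, beside the background of 26.8 percent, and 1 of them fell on its own (-1.69, adjusted p = 0.0474). The set of 5 H2B genes, HIST1H2BC to HIST1H2BI as listed, was at 9.16 on both mimic arrays and at 9.81 and 9.80 on the control arrays (-0.64, SE 0.117, limma adjusted p = 0.0670). For the H4 set the adjusted p was 0.0371 without control replicate 1, 0.0651 without control replicate 2, and 0.316 and 0.287 without mimic replicates 1 and 2. For the H2B set the same fits gave 0.0477, 0.0762, 0.365 and 0.293.

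In all, 10 symbol sets held histone genes, and none was called. Of these 5 had an unadjusted p under 0.05, all of them lower, beside a background of 20.4 percent in either direction. The H2AC4/H2AC8 set was at 7.76 and 8.29 on the mimic arrays against 8.87 and 8.81 on the control arrays (-0.81, SE 0.200, adjusted p = 0.116). The set of H2AC7 with 10 H3 genes was at 8.17 and 8.09 against 8.65 and 8.67 (-0.53, SE 0.120, adjusted p = 0.101). Other sets did not share this: H3-3A/H3-3B, which encode the replication-independent variant H3.3, was at 9.79 and 9.83 against 9.55 and 9.81 (0.13, SE 0.144, adjusted p = 0.667), and the 7 H2A genes from H2AC11 on were at -0.01 (SE 0.225, adjusted p = 0.981). Among 63 tested histone probesets, 37, or 58.7%, were lower and 9, or 14.3%, higher without overlap, beside 26.8 and 21.0 percent of all probesets, and the median change was -0.40. Of 10 histone genes of these sets that had tested probesets of their own, 2 fell and 1 rose. Among all 15708 single genes 0.751 percent fell and 1.5 percent rose. H3C11 fell by 1.22 (SE 0.188, limma adjusted p = 0.0485) and H2AC12 by 1.42 (SE 0.154, limma adjusted p = 0.0164), while H2BC18 rose by 0.82 (SE 0.122, limma adjusted p = 0.0448). The other 7 missed the threshold, from -0.58 for H2AC17 to 1.32 for H2AC7.

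**Figure D3:**
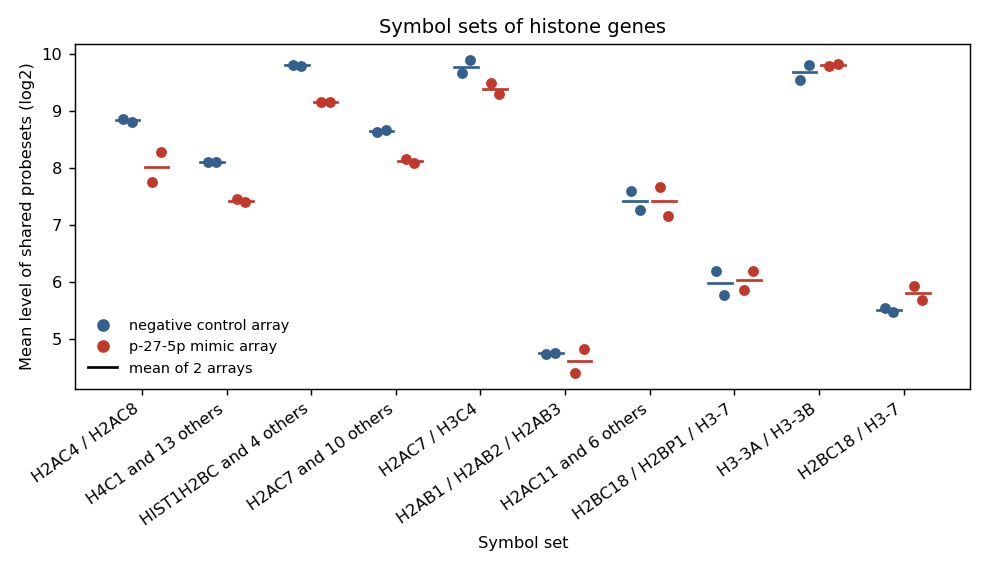
Mean log2 level of the tested shared probesets of the 10 symbol sets with histone genes (y axis), by array, ordered by their change, with bars at the mean of the 2 arrays of a group. The 5 sets on the left have both mimic arrays below both control arrays, by 0.39 to 0.81, and none of the 10 passed the threshold.

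The plot of histone sets shows how close the 2 arrays of a group lie in the H4 and H2B sets and how far in H2AC4/H2AC8. The other 4 of the 6 sets with the smallest p for a decrease read neighbouring genes. AP3S2, a subunit of the AP-3 adaptor that sorts proteins to lysosomes, shared 5 probesets with C15orf38, at 7.36 and 7.51 on the mimic arrays against 8.17 and 8.38 on the control arrays (-0.84, SE 0.142, limma adjusted p = 0.0592). AP3S2 alone differed by -0.54 (adjusted p = 0.197). GNB1L, a WD-repeat protein, shared 2 probesets with RTL10, at 5.38 and 5.60 against 6.28 and 6.57 (-0.93, SE 0.163, limma adjusted p = 0.0619). Without control replicates 1 and 2 the adjusted p was 0.00787 and 0.0486 for AP3S2/C15orf38 and 0.00369 and 0.0370 for GNB1L/RTL10. Without mimic replicates 1 and 2 it was 0.301 and 0.176 for the former and 0.276 and 0.137 for the latter.

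SNRPN and SNURF are read from 1 imprinted, bicistronic transcript and encode a spliceosomal protein and a small upstream protein. Of their 11 shared probesets 8 were tested, with a mean of 7.31 and 7.56 on the mimic arrays against 8.12 and 8.28 on the control arrays (-0.77, SE 0.149, limma adjusted p = 0.0755). The mimic arrays were below the control arrays, but the median of the probesets differed by only -0.11 (adjusted p = 0.808), and the 1 tested probeset of SNRPN alone by 0.30 with overlap (adjusted p = 0.604). The adjusted p of the set was 0.0167 and 0.0746 without control replicates 1 and 2, and 0.383 and 0.178 without mimic replicates 1 and 2. PGAM5, a mitochondrial phosphatase, and PXMP2, a peroxisomal membrane channel, shared 4 probesets at 9.15 and 9.21 against 9.73 and 9.89 (-0.63, SE 0.128, adjusted p = 0.0817). That p was 0.0314 and 0.139 without control replicates 1 and 2, and 0.412 and 0.294 without mimic replicates 1 and 2. PXMP2 alone stood at 7.56 and 7.76 against 8.68 and 8.66 and fell by 1.01 (SE 0.133, limma adjusted p = 0.0312), while PGAM5 alone differed by -0.06 (adjusted p = 0.812).

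The groups of linked symbols with the most probesets rest on the most measurements, and of the 6 largest only C4A/C4B, described above, held a set that passed the test. The largest, with 61 probesets, belongs to ANKHD1, an ankyrin-repeat protein, EIF4EBP3, a repressor of cap-dependent translation, and their read-through. Its 53 probesets under all 3 symbols stood at 9.20 and 9.22 on the mimic arrays against 9.05 and 9.14 on the control arrays, a difference of 0.11 (SE 0.120, 95% confidence interval -0.19 to 0.42, limma adjusted p = 0.651). The 5 probesets of ANKHD1/EIF4EBP3 gave 0.49 (SE 0.138, adjusted p = 0.143), and the 3 of the read-through with EIF4EBP3 gave -0.34 (SE 0.125, adjusted p = 0.214). None passed, and EIF4EBP3 alone was at 0.44 (adjusted p = 0.225).

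CELSR3, a large cadherin, shared 43 probesets with SLC26A6, an anion exchanger, at 7.76 and 7.57 on the mimic arrays against 7.45 and 7.32 on the control arrays (0.28, SE 0.136, 95% confidence interval -0.06 to 0.63, adjusted p = 0.325). SLC26A6 alone, with 21 probesets, differed by -0.03 (adjusted p = 0.914). CHKB, a choline kinase, and CPT1B, which moves fatty acids into muscle mitochondria, shared 35 probesets, 33 of them tested, at 7.05 and 7.28 against 6.72 and 6.84 (0.39, SE 0.142, adjusted p = 0.218). The JMJD7 and PLA2G4B locus, a hydroxylase and a phospholipase joined by a read-through, had 33 of 34 probesets tested, at 6.49 and 6.59 against 7.02 and 7.17 (-0.56, SE 0.130, adjusted p = 0.104). There the mimic arrays lay below the control arrays, and 30 of the 33 probesets were below 0. SLCO1B1 and SLCO1B3, hepatic organic anion transporters, had only 10 of 34 probesets bright enough to test (-0.33, SE 0.154, adjusted p = 0.308).

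AGO3 and AGO4, Argonaute proteins that hold small RNAs, are of interest for a microRNA mimic and were named after their values were seen. They shared 28 probesets, 24 of them tested, at 6.02 and 5.94 on the mimic arrays against 5.49 and 5.52 on the control arrays. The difference was 0.48 (SE 0.120, 95% confidence interval 0.17 to 0.78, limma adjusted p = 0.118). Of 24 changes 23 were above 0, 14 of them without overlap, beside a background of 21.0 percent. On its own 1 probeset was called (1.64, adjusted p = 0.0454), beside 0.797 percent called higher among all probesets. With the brightest probeset alone the set differed by 0.025 (limma adjusted p = 0.959). AGO3 alone, with 25 tested probesets, stood at 7.20 and 6.99 against 7.18 and 7.43 and differed by -0.21 (SE 0.153, adjusted p = 0.4999), with overlap.

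By kind of sharing, assigned from the symbols alone, the calls were spread unevenly, but so were the probesets. Read-through genes had 201 tested probesets and a median change of 0.00, protein genes paired with a non-coding gene or pseudogene had 183 and -0.02, and families of clustered first exons had 12 and 0.19, with no call in any of the 3. The 226 tested probesets whose genes share a name stem, mostly gene families, held 3 increases (1.33%) and 1 decrease (0.442%). The 1086 probesets of all remaining combinations, whose genes mostly lie apart on 1 chromosome, held 23 increases (2.12%), the 20 of C2/CFB among them. The near copies C4A and C4B are counted there too, since a stem was the first 3 letters of a name. The background was 0.797 percent higher and 0.0889 percent lower, a rate at which classes this small hold few or no calls. Without C2/CFB, 0.345% of all tested shared probesets rose, so these counts do not set the classes apart. Another 101 probesets, 50 of them tested with no call, carried symbols that now stand for 1 gene.

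The current gene table does not place all these genes side by side. Of the 420 sets, 93 have genes that overlap in RefSeq and 244 have genes on 1 chromosome that do not, while 52 have genes on different chromosomes. In 19 of these 52 a listed symbol was updated and in 33 all stand as listed, and whether an old or ambiguous name put them together was not tested. A few are known as partners of oncogenic fusions, and are given as examples chosen after their values were seen. EWSR1/FLI1, fused in Ewing sarcoma, was at 4.76 and 5.08 on the mimic arrays against 4.93 and 4.28 on the control arrays (0.32, SE 0.252, adjusted p = 0.541). CREB3L2/PPARG was at 7.46 and 7.29 against 7.35 and 7.49 (-0.05, SE 0.135, adjusted p = 0.878), and ROS1/SLC34A2 at 5.11 and 4.48 against 5.20 and 4.58 (-0.09, SE 0.296, adjusted p = 0.891). In each the groups overlapped.

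The UGT1A genes, which attach glucuronic acid to steroids and drugs, made 9 sets, of which only 3 had a probeset bright enough to test and none was called. The protocadherin gamma cluster made 3 sets. Of these PCDHGA12/PCDHGC4 was at 5.38 and 5.50 on the mimic arrays against 3.92 and 4.61 on the control arrays (1.18, SE 0.248, adjusted p = 0.0876), without overlap, and PCDHGA12/PCDHGC3 was at 8.49 and 8.09 against 8.26 and 8.23 (0.05, SE 0.170, adjusted p = 0.892).

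One set holds a microRNA, MIR21 with its host gene VMP1, an endoplasmic reticulum protein of autophagy, and was chosen after its values were seen. Its mature product hsa-miR-21-5p, an abundant microRNA of epithelial tumours, lies at chr17:59841273-59841294 on the plus strand of GRCh38.p14 per RefSeq, and its seed, bases 2 to 8, is in capitals here.
hsa-miR-21-5p: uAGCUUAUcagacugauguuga
The 2 shared probesets, which read longer transcripts and not the mature microRNA, stood at 11.62 and 11.86 on the mimic arrays against 11.26 and 11.39 on the control arrays. The difference was 0.41 (SE 0.144, limma adjusted p = 0.199). VMP1 alone, with 12 probesets, stood at 10.71 and 10.88 against 11.02 and 11.19, a difference of -0.31 (SE 0.139, adjusted p = 0.296). So the shared and the own probesets lay on opposite sides of 0, each without overlap, and their difference of 0.72 missed the threshold (adjusted p = 0.341).

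In most cases the change of shared probesets lay close to that of the probesets naming a single gene of the set, both being near 0 for most sets. Of the genes behind shared probesets, 448 also had tested probesets of their own, and 8 of these, or 1.79%, rose and 7, or 1.56%, fell, beside 1.52 and 0.735 percent of all sets and genes. They gave 439 comparisons of a set with 1 of its genes, in 293 sets. Among these are sets of 1 gene under several symbols, such as MYC and ILK, where both sides name the same gene. The 2 changes were within 0.5 of each other on the log2 scale in 317 of the 439 comparisons, and the median size of the difference was 0.30. An unadjusted p under 0.05 was found for 59, or 13.4 percent, and 3 passed the threshold: C2/CFB against each of its genes and IRF9/RNF31 against IRF9. Leaving out mimic arrays 1 and 2 and control arrays 1 and 2 in turn gave 4, 9, 3 and 1 such pairs, with 439 degrees of freedom with the prior in the fits without a mimic array, 4.23 without a control array and 5.64 with all arrays. After the pairs described so far, the next smallest p belonged to MREG/PECR, a melanosome protein and a peroxisomal reductase. Its 1 probeset was at 9.58 and 9.63 against 8.62 and 9.25 (0.67, SE 0.227, adjusted p = 0.193), and the difference was 0.36 (adjusted p = 0.238) without control replicate 1 and 0.98 (adjusted p = 0.00802) without control replicate 2. PECR alone was at 5.93 and 6.23 against 6.62 and 6.89 (-0.68, adjusted p = 0.120), and the difference between them was 1.35 (adjusted p = 0.147).

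**Figure D4:**
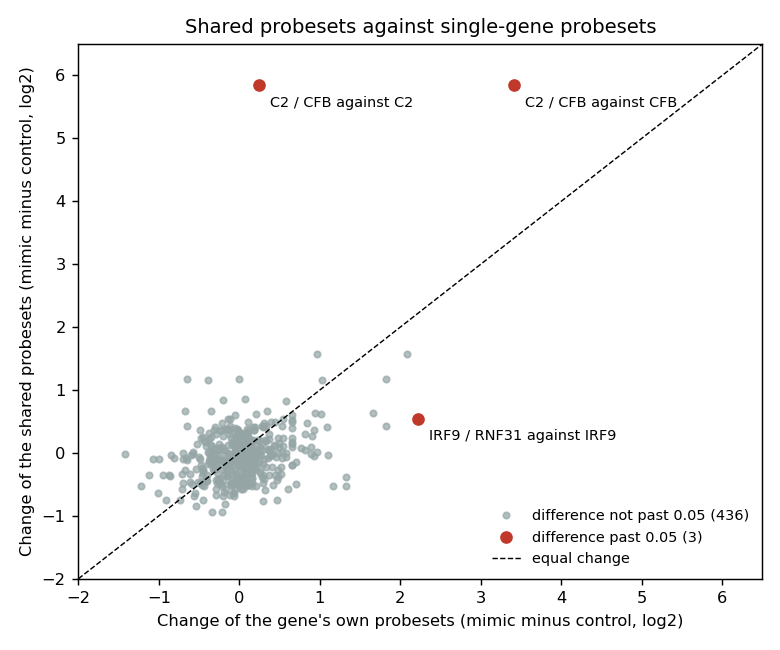
Change of the shared probesets of a symbol set (y axis) against the change of the probesets that name 1 of its genes alone (x axis), both mimic minus control on the log2 scale, for 439 pairs of a set and a gene, with the dashed line at equal change. Most of the points lie near the line and within 1 of 0, and the 3 red points, whose difference passed the threshold, are C2/CFB against C2 and against CFB above the line and IRF9/RNF31 against IRF9 below it.

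The plot of shared against own changes shows how far the C2/CFB points stand from the other pairs. For 59 tested symbol sets no gene had probesets of its own that passed the filter, so there only the shared signal was tested. IFNL2/IFNL3, HLA-B/HLA-C, HLA-B/MICA and C4A/C4B are among them.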

How the data were processed

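T-47D cells were measured on 4 exon arrays, 2 per group, in the groups the labels give. The authors deposited log2 values per probeset. Partek, RMA and the genome build hg18 stand in the submitters' processing notes, with no version, order or detection calls. No coordinate of that build was used. The interquartile range of the deposited log2 values was 4.18 and 4.32 with the mimic against 4.25 and 4.52 with the control, so they do not share 1 distribution. The precision is limited by the number of arrays.

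Symbols came from the platform's annotation. Of 840 symbols on shared probesets, 659 were current, 161 were updated through a RefSeq synonym and 20 were kept as listed, which turned 509 listed combinations into 420 symbol sets. Probesets with a mean under 4.09 over the 4 arrays, the 25th percentile of the table, were left out. This left 1758 shared probesets and 352 sets, while 577 probesets and 68 sets were not tested. Mimic and control were compared by two-sided tests of limma 3.58.1 under R 4.3.3 (lmFit, then eBayes, p-values adjusted by Benjamini-Hochberg, threshold 0.05) in 3 fits, each adjusted over all its features. They were run on all probesets, on the means of symbol sets and of single genes, and on the difference, per array, between a set's probesets and those of 1 of its genes. Each had 2 residual degrees of freedom, and 5.03, 5.27 and 5.64 with the prior. SE is that of limma's fit, changes are mimic minus control, and fold changes are 2 to the power of the change. The fits were tested on simulated data. Tables were read with pandas 2.3.3 and the R package data.table (version 1.17.8), and Python 3.11.15 with matplotlib 3.10.9 drew the plots.

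The sets named are those that rose, the 6 with the smallest p for a decrease (since under 6 passed), every tested set with an interferon-list gene, the 6 groups of linked symbols with the most probesets, and the 5 sets with the smallest p for a difference from 1 of their genes. Any other name is given as picked with its values known. The rule for the members reads annotation only, but the members and gene lists were chosen with earlier results of these data known. Promoter and microRNA sequences are from RefSeq (GRCh38.p14). The table used holds no promoter for C4A, C4B, CTRL and PLCXD2.

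Tried as alternatives were quantile normalization, equal array medians, a replicate block, no filter or one at the median of the table (6.14), each array left out in turn, an intensity trend, robust hyperparameters, a threshold of 0.1, and a set's median or brightest probeset. The labels number the replicates alike in both groups. Over the tested probesets, the deviations from the group mean of mimic and control replicate 1 correlated with r = 0.303. With only 2 such pairs this does not show that the numbers pair the arrays, and no block was used.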

Additional observations from a re-analysis of the deposited data

How the results depend on the processing

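C2/CFB rose under every alternative run, as did IFNL2/IFNL3 and C2/CFB against C2 alone except with probesets above the table's median, where neither could be fitted. With no filter the change was 0.50 instead of 0.84 for HLA-DQA1/HLA-DQA2 and 0.74 instead of 1.16 for PHLDB2/PLCXD2. For C4A/C4B it was 0.88 instead of 0.97, and the others of the 8 sets that rose kept the same change. The 8 sets remained called with no filter, with an intensity trend and with robust hyperparameters. They also did without control replicate 1 or 2, in fits with more degrees of freedom (13.5 with the prior against 5.27). Shared probesets called went from 27 to 72 with an intensity trend (46 higher, 26 lower) and to 46 at a threshold of 0.1 (39 higher, 7 lower), and leaving out 1 array gave 21 to 23. Symbol sets called went from 8 to 42 with no filter (19 higher, 23 lower), to 39 with an intensity trend (16 higher, 23 lower), to 20 at a threshold of 0.1 (11 higher, 9 lower) and to 2 with the brightest probeset. Leaving out 1 array gave 4 to 47 sets and, for shared against own probesets, 1 to 9 pairs instead of 3. The cause of these shifts was not tested. With the replicate block, 23 probesets, 9 sets (7 higher, 2 lower) and 3 pairs were called. AP3S2/C15orf38 (adjusted p = 0.0458) and GNB1L/RTL10 (adjusted p = 0.0403) passed under it, and HLA-DQA1/HLA-DQA2 (adjusted p = 0.0506) did not. C4A/C4B missed the threshold with probesets above the table's median (0.69, adjusted p = 0.140). The sign turned, in sets that were not called, for TRIM34/TRIM6/TRIM6-TRIM34 (-0.036) and ANKHD1/EIF4EBP3 (-0.00143) with the median of probesets and for CELSR3/SLC26A6 (-0.10) with the brightest probeset. Signal near background limits the dim sets, C2 alone, HLA-DQA1/HLA-DQA2, HLA-DOB/TAP2 and UGT1A among them.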
